A study of Mus musculus with 22 samples.

Results

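The genes described here are 10 genes of the unfolded protein response, measured by bulk RNA sequencing in mouse CD8+ T cells before and after activation. They were chosen by name (Ern1, Xbp1, Dnajb9, Eif2ak3, Atf4, Ddit3, Atf6, Hspa5, Hsp90b1 and Herpud1) and matched on the symbols in the deposited tables, where all 10 were found among 21674 genes with symbols and 46603 genes in the count table. All 10 passed the filter on low counts and belonged to the 21183 genes tested. The 22 libraries came from 8 mice in 3 experiments, numbered 1, 3 and 5. Magnetic depletion of spleen and lymph node cells left naive CD8+ T cells, which were sequenced directly (naive) or following 24 h or 48 h of stimulation. The stimulus was coated anti-CD3 plus anti-CD28 in solution, which trigger the T cell receptor and its costimulatory receptor CD28.

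Every mouse carried Cd4Cre, in which the Cd4 promoter drives the Cre recombinase and thereby acts in T cells during their development in the thymus. The KI group held 3 mice of the line Tcaim KI Cd4Cre with the genotype label hocre, 1 in each experiment. The wt group held 3 mice of that same line with the genotype label wtcre, also 1 in each experiment. The KO group held 2 mice of the line Tcaim KO Cd4Cre with the genotype label hocre, in experiments 1 and 5, sampled naive and at 48 h. KI and wt mice were male in experiments 1 and 3 and female in experiment 5, and both KO mice were female. The ages of the mice are not given in the sources used here. No Cre-positive controls of the KO line were analysed here.

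The unfolded protein response is the signalling system by which a cell adjusts the folding capacity of its endoplasmic reticulum (ER). It starts from 3 sensors in the ER membrane. IRE1, encoded by Ern1, is a kinase and RNase that splices Xbp1 mRNA, and the protein made from spliced Xbp1 activates genes such as Dnajb9, which encodes an ER co-chaperone. PERK, encoded by Eif2ak3, phosphorylates eIF2alpha, which lowers general translation and favours translation of Atf4, and ATF4 activates Ddit3, the gene of the transcription factor CHOP. ATF6 is cut by Golgi proteases into a transcription factor whose targets include the chaperones Hspa5 (BiP) and Hsp90b1 (GRP94) and the ER-membrane protein gene Herpud1. Activated T cells grow and build secretory capacity, and XBP1 is known to take part in the differentiation of effector CD8+ T cells. The targets are shared in part between branches, and each gene is placed here with the branch it is best known for. Splicing, phosphorylation and cleavage are not seen in gene counts, and spliced and unspliced Xbp1 mRNA are counted as 1 gene.

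The ATF6-branch chaperones are classic carriers of the ER stress response element (ERSE, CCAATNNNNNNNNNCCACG), bound by ATF6 together with NF-Y. It was searched on both strands in the 250 bases before the RefSeq start of each gene (GRCm38.p6), together with ERSE-II (ATTGG, 1 base of any kind, then CCACG), the unfolded protein response element (UPRE, TGACGTGN) and the C/EBP-ATF element (TGATGNAA). Of the 10 genes, 9 had a window in the table. The elements found in the chaperone genes and Herpud1 are printed because their genes behaved differently from each other on activation. Each is written along the strand of its gene with 5 flanking bases in lower case, and capitals mark the match.
Hspa5, ERSE, chr2:34772020-34772048: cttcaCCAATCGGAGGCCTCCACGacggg
Hsp90b1, ERSE, chr10:86705633-86705661: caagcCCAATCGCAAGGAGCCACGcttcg
Hsp90b1, ERSE read on the opposite strand, chr10:86705528-86705556: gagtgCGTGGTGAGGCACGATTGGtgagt
Herpud1, ERSE-II, chr8:94386372-94386392: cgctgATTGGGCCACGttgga
Hspa5, UPRE, chr2:34771928-34771945: agcaaTGACGTGAgttgc
Herpud1, C/EBP-ATF element on the opposite strand, chr8:94386312-94386329: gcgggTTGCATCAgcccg

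The Hspa5 ERSE began 65 bases before the RefSeq start, the Hsp90b1 matches began 212 and 107 bases before it, and the Herpud1 ERSE-II began 52 bases before it. Among 32817 windows of this length, 0.113% held an ERSE and 0.0305% an ERSE-II. The shares were 1.65% for the UPRE and 3.45% for the C/EBP-ATF element. None of these 4 letter patterns was present in the windows of Ern1, Xbp1, Dnajb9, Eif2ak3, Atf4 or Ddit3. The Dnajb9 window lay wholly within the GENCODE span of the gene, and 120 bases of the Hspa5 window and 65 bases of the Hsp90b1 window did so. A match describes the letters only.

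Total counts per library ran from 62551905 to 93489115. Log2 values of replicate libraries correlated across genes at 0.966 to 0.989 in the wt and KI groups, at 0.972 for the naive KO pair and at 0.952 for the 48 h KO pair. Tcaim, the targeted gene, stood at 138, 145 and 141 CPM (counts relative to the library total, scaled with TMM factors) in naive KI libraries and at 15.2, 14.6 and 14.7 CPM in naive wt libraries. Libraries labelled KO held 14.9 and 19.5 CPM of it before activation and 11.7 and 5.99 CPM after 48 h, and it was not called lower than in wt at either time (edgeR adjusted p = 1 and 0.84). Gene counts do not show which part of the gene was removed, and directions for this group are therefore those of the labels. CPM of cell type markers, here and below, are relative to the library total without TMM factors. The 6 CD8 T cell markers summed to 2430 to 5350 CPM, and none was at 0. The mouse labelled KO in experiment 1 stood apart: Cd4 stood at 196 CPM in its naive library and at 141 CPM in its 48 h library, against 8.36 to 58.5 CPM in the other libraries. Unless stated otherwise, results that rest on this mouse are given with and without its 48 h library.

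**Figure D1:**
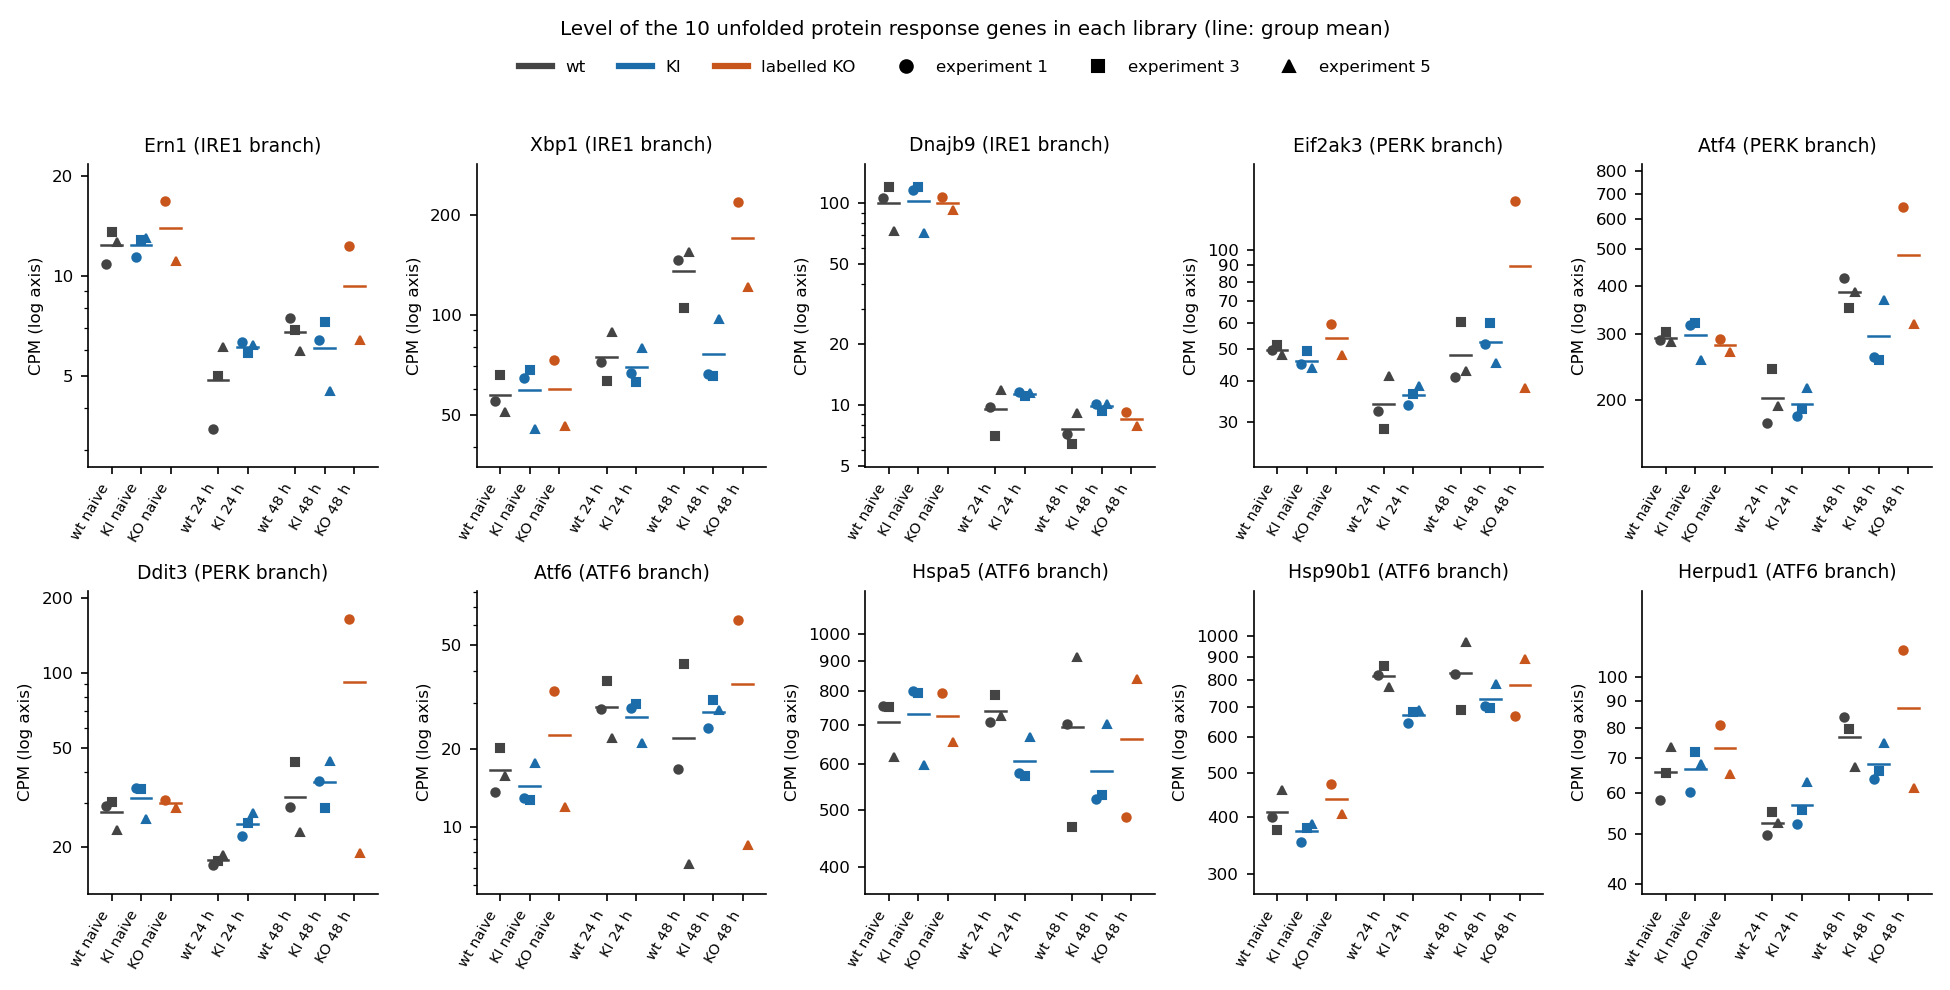
CPM of each gene (log axis) in each of the 22 libraries, by group on the horizontal axis, with colour for genotype, symbol for experiment and a line at the group mean. Dnajb9 lies between 71.3 and 121 CPM in all naive libraries and at or below 11.9 CPM in all activated ones, and the 48 h library labelled KO of experiment 1 has the highest level of Xbp1, Eif2ak3, Atf4, Ddit3, Atf6 and Herpud1.

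To compare levels between genes, the deposited length-scaled values (FPKM) were used. In naive wt cells Atf4 had 201 ± 8.52 FPKM (SD, n = 3) and Hspa5 199 ± 23.4 FPKM, followed by Hsp90b1 at 121 ± 11.8 FPKM and Dnajb9 at 63.8 ± 16.4 FPKM. Herpud1 had 33.4 ± 3.83 FPKM, Xbp1 21 ± 3.01 FPKM, Ddit3 19.2 ± 2.72 FPKM and Eif2ak3 9.78 ± 0.436 FPKM. The other sensors were lowest, Atf6 at 2.13 ± 0.452 FPKM and Ern1 at 1.8 ± 0.217 FPKM. Neighbours in this order whose ranges overlapped were Atf4 with Hspa5, Xbp1 with Ddit3, and Atf6 with Ern1. In wt cells at 48 h Xbp1 was in place 4 with 46.6 ± 9.45 FPKM, and Dnajb9 had moved from place 4 to place 8 with 4.55 ± 0.851 FPKM. Ern1 was last in all 8 groups.

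The first question was how each branch changed when wt cells were activated. At 24 h 4 of the 10 genes were called (edgeR quasi-likelihood test, adjusted p under 0.05 over all genes), 3 lower and 1 higher. Of all tested genes 48.4% were called, 26.3% higher and 22% lower. At 48 h 4 were called, 2 in each direction, against 56.4% of all genes, 29.6% higher and 26.8% lower. From 24 h to 48 h 2 were called, both higher, against 7.45% of all genes, 4.06% higher and 3.38% lower. The share of called members thus lay close to that of all genes for both comparisons with naive cells. With only naive and 24 h wt libraries fitted, 8 of the 10 were called, against 60.9% of all genes in that fit. In this bulk RNA, fewer cells of a type and less RNA per cell cannot be told apart.

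In the IRE1 branch, Dnajb9 (ENSMUSG00000014905, chr12:44205559-44210326) fell and Xbp1 (ENSMUSG00000020484, chr11:5520659-5525893) rose. Dnajb9, the co-chaperone gene, had 106, 121 and 72.7 CPM in naive wt libraries of experiments 1, 3 and 5, 9.81, 7.03 and 11.9 CPM at 24 h, and 7.18, 6.44 and 9.14 CPM at 48 h. Every naive library was above every activated one. By edgeR the level was 10.4-fold lower at 24 h (log2 fold change -3.38, SE 0.235, adjusted p 2.88e-09). At 48 h it was 13.2-fold lower (-3.72, SE 0.238, adjusted p 5.75e-10). These were the 2 lowest log2 fold changes among the 10 genes in wt cells. Over all alternatives they ran from -3.76 to -3.04 at 24 h and from -4.06 to -3.45 at 48 h. Dnajb9 has an exon that overlaps the microRNA gene Mir5627 on the other strand.

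Ern1 (ENSMUSG00000020715, chr11:106394650-106487852), the sensor of this branch, also fell. It had 10.9, 13.6 and 12.7 CPM in naive wt libraries, 3.46, 5 and 6.12 CPM at 24 h, and 7.5, 6.86 and 5.96 CPM at 48 h. The naive libraries did not overlap with the activated ones. On the log2 scale it fell by 1.35 at 24 h (edgeR, SE 0.248, adjusted p 0.000214). At 48 h the value was -0.87 (edgeR, SE 0.246, adjusted p 0.00569).

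Xbp1, the transcription factor gene, had 55.2, 65.8 and 51 CPM in naive wt libraries and 72.2, 63.2 and 88.8 CPM at 24 h, when it was not called (0.38 on the log2 scale, SE 0.238, edgeR adjusted p 0.193). At 48 h it had 146, 105 and 155 CPM, above every naive and every 24 h library. Against naive it rose by 1.24 on the log2 scale (edgeR, SE 0.241, adjusted p 0.000265). Against 24 h it was 0.86 (edgeR, SE 0.239, adjusted p 0.035), a call that was lost in 6 of the alternatives. Of these, 1 was the fit of only those groups (adjusted p 0.0643). The others left out wt replicate 1, 3 or 5 (adjusted p 0.312, 0.0724 and 0.136) or KI replicate 1 (0.0745) or 3 (0.0643). Xbp1 and Dnajb9 thus moved in opposite directions: the ratio of Dnajb9 to Xbp1 FPKM was 3.01 ± 0.463 in naive wt cells, 0.221 ± 0.0241 at 24 h and 0.0984 ± 0.0111 at 48 h (SD, n = 3), without overlap between the 3 times.

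In wt libraries the 6 CD8 T cell markers summed to 4490 to 5110 CPM naive and to 2480 to 3180 CPM at 48 h. Sums for other cell types were also lower at 48 h, apart from that for NK cells. The ranges of the CD4 T cell sum overlapped. The 6 B cell markers summed to 1100 to 1350 CPM in naive wt libraries and to 468 to 688 CPM at 48 h. The 6 myeloid markers went from 107 to 233 CPM naive to 19.9 to 31.5 CPM at 48 h, and the 5 erythroid markers from 7.57 to 37.9 CPM to 0.286 to 0.579 CPM. The 5 plasma cell markers went from 23.2 to 29.8 CPM to 7.65 to 8.78 CPM, and the 10 salivary acinar markers from 7.84 to 10.1 CPM to 2.66 to 5.11 CPM, with Smr2 at 0 in all libraries. The 4 CD4 T cell markers went from 54.9 to 95.9 CPM to 33.8 to 63.4 CPM. The 4 NK cell markers went from 51.8 to 99 CPM to 106 to 124 CPM. Of these, only Eomes rose, from 35.7, 45.4 and 40.4 CPM naive to 105, 120 and 124 CPM at 48 h. Ncr1 fell from 5.21, 19.2 and 16.9 CPM to 0.0117, 0.0124 and 0.105 CPM. Klrb1c fell from 7.06, 21.8 and 21 CPM to 0.0233, 0.087 and 0.0921 CPM, and Klra8 from 3.9, 12.6 and 10.2 CPM to 0, 0.0248 and 0.0132 CPM. The naive library with the highest B cell sum, 2820 CPM in experiment 1 of the KO label, had 108 CPM of Dnajb9, where the other naive libraries had 71.3 to 121 CPM. The same library had 16.8 CPM of Ern1, above the 10.9 to 13.6 CPM of the other naive libraries. The part of other cells in the falls of Dnajb9 and Ern1 was not tested.

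In the PERK branch Atf4 fell at 24 h and rose from 24 h to 48 h, and the other genes of the branch were not called. Atf4 (ENSMUSG00000042406, chr15:80255184-80257541), the transcription factor gene, had 288, 303 and 285 CPM in naive wt libraries, 174, 242 and 194 CPM at 24 h, and 421, 350 and 386 CPM at 48 h. The 3 times did not overlap. Atf4 fell by 0.52 on the log2 scale at 24 h (SE 0.199, edgeR adjusted p 0.0374). It rose by 0.92 from 24 h to 48 h (SE 0.2, edgeR adjusted p 0.0085). Against naive, the 48 h value of 0.40 was not called (SE 0.199, adjusted p 0.0935), but it was without the 48 h library labelled KO of experiment 1 (adjusted p 0.022). The 24 h call was lost without wt replicate 1 (-0.43, adjusted p 0.215), 3 (-0.64, adjusted p 0.0581) or 5 (-0.51, adjusted p 0.127), and without KI replicate 1 (adjusted p 0.0579) or 3 (adjusted p 0.0571). The later rise lost its call without wt replicate 1 (0.75, adjusted p 0.211) or 5 (0.89, adjusted p 0.0949).

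Eif2ak3 (ENSMUSG00000031668, chr6:70844515-70905245), the PERK sensor, had 49.6, 51.3 and 47.8 CPM naive, 32.4, 28.4 and 41.2 CPM at 24 h, and 41, 60.2 and 42.8 CPM at 48 h. Its wt values at 24 h lay below all naive ones, yet its change of -0.54 on the log2 scale was not called (SE 0.292, edgeR adjusted p 0.132). Ddit3 (ENSMUSG00000025408, chr10:127290774-127296288), the CHOP gene, had 29.2, 30.4 and 23.4 CPM naive, 16.9, 17.6 and 18.5 CPM at 24 h, and 28.9, 43.7 and 23 CPM at 48 h. It too was below all naive libraries at 24 h without being called (-0.65 on the log2 scale, SE 0.435, edgeR adjusted p 0.23). The fit shares 1 estimate of spread over all groups, and the 48 h KO pair differed widely in both genes. Without the 48 h library labelled KO of experiment 1, both were called lower at 24 h (adjusted p 0.00748 for Eif2ak3 and 0.0113 for Ddit3) and higher from 24 h to 48 h (0.50, adjusted p 0.0466, and 0.85, adjusted p 0.00912). Exons of Ddit3 overlap a second gene of that name, Gm4189 and Mars, and an exon of Eif2ak3 overlaps Gm43292, so their counts are uncertain.

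In the ATF6 branch Hsp90b1 rose, and Hspa5 was not called in either direction. Hsp90b1 (ENSMUSG00000020048, chr10:86690209-86705509), the ER chaperone GRP94, had 400, 374 and 459 CPM naive, 823, 858 and 775 CPM at 24 h, and 827, 690 and 969 CPM at 48 h. All activated libraries exceeded all naive ones. It rose by 0.99 on the log2 scale at 24 h (SE 0.132, edgeR adjusted p 6.52e-06). At 48 h the rise was 1.01 (SE 0.132, edgeR adjusted p 3.7e-06). Exons of Hsp90b1 overlap 1810014B01Rik, Gm15344 and Gm25745.

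Hspa5 (ENSMUSG00000026864, chr2:34771970-34777547), the chaperone BiP and the usual marker of ER stress, had 754, 752 and 617 CPM naive, 707, 788 and 725 CPM at 24 h, and 702, 468 and 913 CPM at 48 h. The times overlapped. By edgeR it was 0.06 from naive at 24 h on the log2 scale (SE 0.215, adjusted p 0.821). At 48 h the difference was -0.03 (SE 0.215, adjusted p 0.92). At 48 h its change from naive had no common sign within experiments, -0.10, -0.69 and 0.57 in experiments 1, 3 and 5. Both chaperone genes have an ERSE, printed above, and the ratio of Hsp90b1 to Hspa5 FPKM went from 0.619 ± 0.141 in naive wt cells to 1.16 ± 0.0528 at 24 h and 1.3 ± 0.224 at 48 h (SD, n = 3). Across all groups this ratio was 0.464 to 0.781 in the 8 naive libraries and 1.08 to 1.55 in the 14 activated ones.

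**Figure D2:**
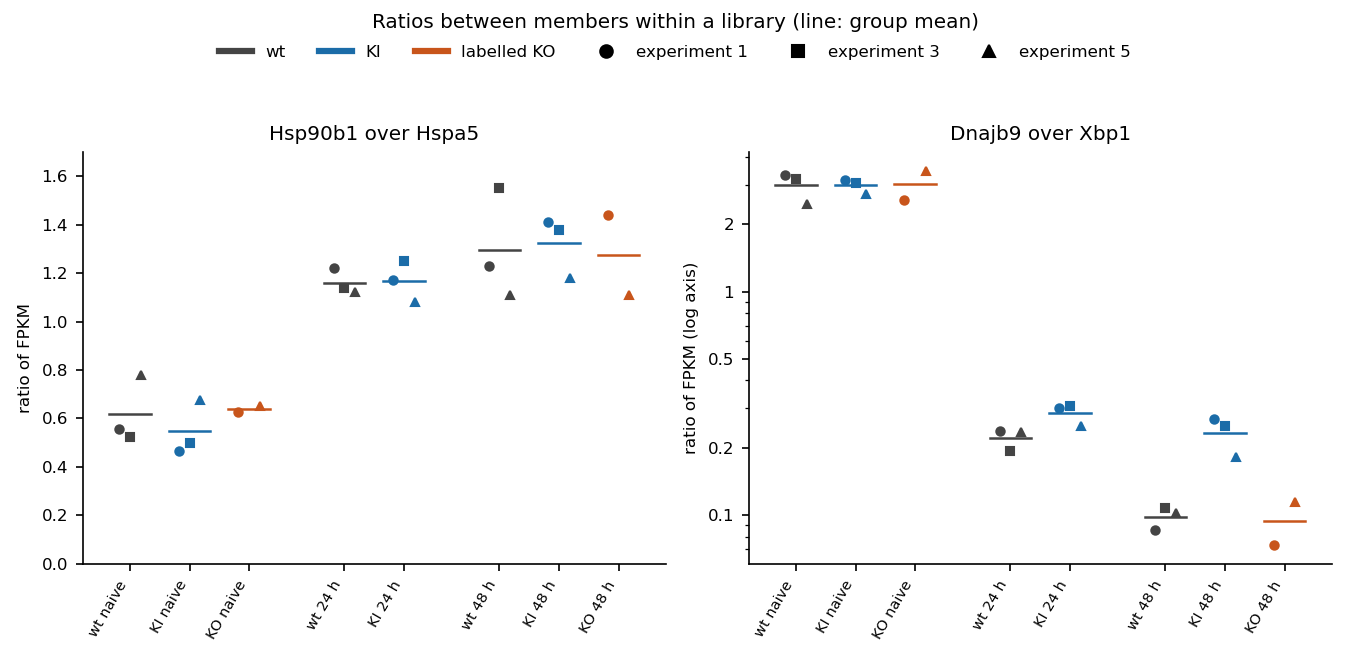
Ratio of FPKM within each library, Hsp90b1 over Hspa5 on the left (linear axis) and Dnajb9 over Xbp1 on the right (log axis), by group, with symbols for experiments and a line at the group mean. Naive and activated libraries are separated in both panels, and at 48 h the KI libraries hold 0.181 to 0.269 of Dnajb9 over Xbp1 against 0.0858 to 0.107 in wt.

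Atf6 (ENSMUSG00000026663, chr1:170704674-170867771), the sensor, went from 13.6, 20.2 and 15.8 CPM in naive libraries to 28.5, 36.5 and 22 CPM at 24 h, above all naive libraries but not called (0.81 on the log2 scale, SE 0.563, edgeR adjusted p 0.243). With only naive and 24 h wt libraries fitted it was called higher (0.79, edgeR adjusted p 0.0117). At 48 h its wt libraries spread from 7.22 to 42.3 CPM. Herpud1 (ENSMUSG00000031770, chr8:94386438-94395377), whose product works in ER-associated degradation, had 58.1, 65.5 and 73.4 CPM naive, 49.8, 55 and 52.5 CPM at 24 h, and 83.7, 79.5 and 67.3 CPM at 48 h. At 24 h Herpud1 lay below all naive libraries but was not called (-0.32 on the log2 scale, SE 0.17, edgeR adjusted p 0.123). It was called lower in some alternatives, among them the compared groups only (-0.35, edgeR adjusted p 0.0217) and limma (-0.40, adjusted p 0.0499). Its log2 fold change from 24 h to 48 h was 0.55 (SE 0.17, edgeR adjusted p 0.0565), with no overlap between these 2 times. With the mouse as a block the same 0.55 was called (adjusted p 0.018), as it was by DESeq2 (0.56, adjusted p 0.0246) and limma (0.54, adjusted p 0.0459).

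KI cells were then followed through the same course. At 24 h 4 genes were called, 3 lower and 1 higher, against 38.7% of all tested genes, 22.9% higher and 15.8% lower. In a fit of these groups alone 9 were called, against 55.7% of all genes in it. At 48 h 3 were called, 1 higher and 2 lower, against 48.7% of all genes, 26.6% higher and 22.1% lower. Dnajb9 had 117, 121 and 71.3 CPM naive, 11.6, 11.1 and 11.5 CPM at 24 h, and 10.2, 9.38 and 10.1 CPM at 48 h. It fell by 3.18 on the log2 scale at 24 h (SE 0.232, edgeR adjusted p 9.16e-09). At 48 h it fell by 3.38 (SE 0.235, edgeR adjusted p 2.24e-09). Ern1 had 11.4, 12.9 and 13 CPM naive, 6.32, 5.85 and 6.19 CPM at 24 h, and 6.4, 7.27 and 4.51 CPM at 48 h. It fell by 1.03 on the log2 scale at 24 h (edgeR adjusted p 0.00284) and by 1.04 at 48 h (edgeR adjusted p 0.00194, and 0.0504 without KI replicate 5). Hsp90b1 had 353, 379 and 386 CPM naive, 643, 682 and 687 CPM at 24 h, and 701, 696 and 786 CPM at 48 h. It rose by 0.85 at 24 h (SE 0.131, edgeR adjusted p 5.48e-05) and by 0.97 at 48 h (SE 0.132, edgeR adjusted p 8.78e-06). In KI libraries the 6 B cell markers summed to 942 to 1220 CPM naive and 536 to 758 CPM at 48 h, and the 6 myeloid markers to 98.4 to 197 CPM and 25.8 to 32.5 CPM. Their part in these changes was not tested.

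The PERK-branch gene Atf4 had 316, 320 and 256 CPM in naive KI libraries, 182, 190 and 216 CPM at 24 h, and 261, 256 and 368 CPM at 48 h. It fell by 0.60 on the log2 scale at 24 h (SE 0.199, edgeR adjusted p 0.0225), a call that was lost without KI replicate 1 (-0.50, adjusted p 0.18) or 3 (-0.52, adjusted p 0.163). From 24 h to 48 h none of the 10 genes was called by edgeR in KI cells, against 2.68% of all genes, 1.72% higher and 0.954% lower. Only Atf4 had an unadjusted p under 0.05 there, at 0.59 on the log2 scale (SE 0.199, adjusted p 0.129). Of the 21183 genes tested, 3286 had one. DESeq2 called 1 gene, Atf4 (0.63, adjusted p 0.0481), and limma 0. Atf4 was also called without the 48 h library labelled KO of experiment 1 (adjusted p 0.0226).

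Eif2ak3 in KI libraries had 45.1, 49.2 and 43.8 CPM naive, 33.7, 36.5 and 38.6 CPM at 24 h and 51.7, 60.1 and 45.3 CPM at 48 h. Ddit3 had 34.4, 34.1 and 25.9 CPM naive, 22.1, 25 and 27.3 CPM at 24 h and 36.7, 28.7 and 44.4 CPM at 48 h. Both had their lowest mean at 24 h, and neither was called in the KI time comparisons, although both were called lower at 24 h when only those groups were fitted (adjusted p 0.00301 for Eif2ak3 and 0.0214 for Ddit3). Xbp1 in KI libraries had 64.6, 68.4 and 45.4 CPM naive, 66.8, 63 and 79.7 CPM at 24 h, and 66.3, 65.7 and 97.1 CPM at 48 h. At 48 h it was 0.36 from naive on the log2 scale (SE 0.238, edgeR adjusted p 0.219), with 0.04, -0.06 and 1.10 within experiments 1, 3 and 5.

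The remaining ATF6-branch genes were not called in KI cells. With only the compared groups fitted, Hspa5 (-0.34, edgeR adjusted p 0.037) and Herpud1 (-0.30, edgeR adjusted p 0.0292) were called lower at 24 h, and Atf6 was called higher at 24 h (0.81, edgeR adjusted p 0.00474) and 48 h (0.92, edgeR adjusted p 0.00073). Hspa5 had 799, 794 and 597 CPM naive, 578, 573 and 667 CPM at 24 h and 523, 530 and 701 CPM at 48 h, when it was -0.32 from naive on the log2 scale (SE 0.215, edgeR adjusted p 0.23). Experiments 1 and 3 gave -0.61 and -0.58, while experiment 5 gave 0.23. Herpud1 had 60.1 to 71.8 CPM naive, 52.2 to 62.9 CPM at 24 h and 63.6 to 74.8 CPM at 48 h. Atf6 stood at 12.9, 12.7 and 17.7 CPM before activation and, without overlap, at 24, 30.9 and 28.2 CPM after 48 h. Its difference of 0.94 on the log2 scale was not called (SE 0.565, edgeR adjusted p 0.179) but was with the mouse as a block (0.93, adjusted p 0.0325).

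**Figure D3:**
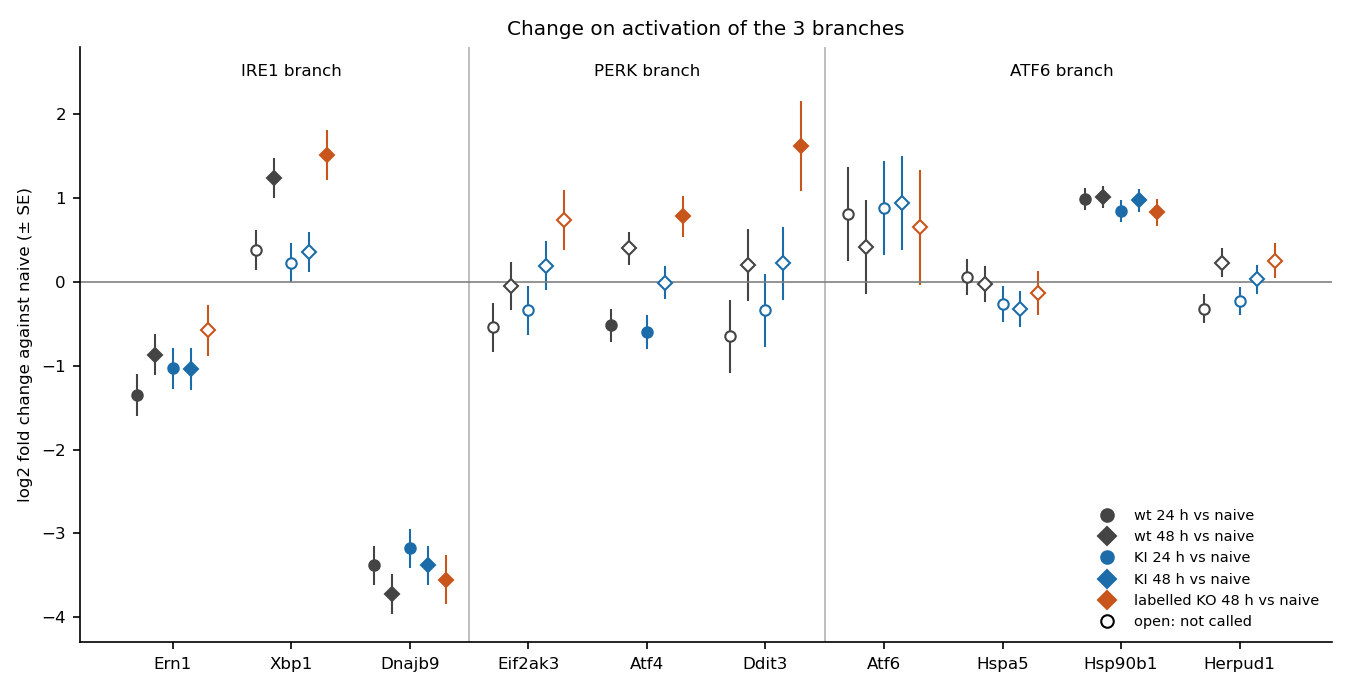
Log2 fold change against naive cells of the same genotype (vertical axis, ± SE, edgeR) for each gene, ordered by branch, with colour for genotype and shape for time, filled where called. Dnajb9 lies between -3.72 and -3.18 in all 5 comparisons, Hsp90b1 between 0.83 and 1.01, and the Xbp1 value at 48 h is 1.24 in wt, 0.36 in KI and 1.51 in libraries labelled KO.

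The direct comparison of genotypes asked whether KI cells, which carry more Tcaim RNA, differed from wt in these genes. In naive cells none of the 10 genes was called by edgeR, against 0.0803% of all genes, and none had an unadjusted p under 0.05. Their log2 differences, KI minus wt, ran from -0.19 to 0.19. At 24 h none was called, against 0.00472% of all genes, and 1, Hsp90b1, had an unadjusted p under 0.05 (-0.29, SE 0.131, edgeR adjusted p 0.531). At 48 h none was called, against 4.2% of all genes, 2.29% higher and 1.91% lower, and 1, Xbp1, had an unadjusted p under 0.05. Of the 21183 genes tested, 1909 at 24 h and 3801 at 48 h had an unadjusted p under 0.05. DESeq2 and limma called none of the 10 in naive cells or at 24 h, and each called Xbp1 at 48 h. The shares of all genes called by these tools are not given here.

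Xbp1 at 48 h was the largest KI difference among the 10 genes. KI libraries had 66.3, 65.7 and 97.1 CPM and wt libraries 146, 105 and 155 CPM, without overlap. The edgeR log2 difference was -0.82 (SE 0.239, adjusted p 0.0583), which misses the threshold. Within experiments 1, 3 and 5 it was -1.14, -0.67 and -0.68. DESeq2 gave -0.85 with an adjusted p of 0.0139, limma on the deposited variance-stabilised values gave -0.84 with 0.0392, and edgeR with no filter on low counts gave an adjusted p of 0.044. With the experiment as a block the adjusted p was 0.0651. Over the 16 alternatives the difference ran from -1.04 to -0.71 and the adjusted p from 0.0139 to 0.356. In naive cells and at 24 h the Xbp1 difference was 0.05 and -0.10, and neither was called.

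Whether activation itself changed Xbp1 differently in KI cells was asked by an interaction. At 48 h the difference in response was -0.88 on the log2 scale (SE 0.336, edgeR adjusted p 0.36), and 0 of the 10 genes were called, against 0.387% of all genes, 0.137% higher and 0.25% lower. Xbp1 was the only one of the 10 with an unadjusted p under 0.05, beside 2064 of the 21183 genes tested. At 24 h 0 of the 10 were called against 0% of all genes, and none had an unadjusted p under 0.05. DESeq2 and limma also called 0 in both interactions. A difference in the response of Xbp1 was therefore not shown by this test.

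The other 9 genes at 48 h differed between KI and wt by -0.39 to 0.39. Dnajb9 was the only further gene whose 48 h libraries did not overlap, with 10.2, 9.38 and 10.1 CPM in KI and 7.18, 6.44 and 9.14 CPM in wt (log2 difference 0.39, SE 0.217, edgeR adjusted p 0.38). Of all tested genes 20.6% did not overlap between KI and wt at 48 h, so that 2 of 10 members is near the background. Atf4 differed by -0.39 (SE 0.199, edgeR adjusted p 0.325), with -0.69, -0.45 and -0.07 within experiments. Atf6 had the widest spread, from -0.45 to 1.96 within experiments. At 24 h Hspa5 (578, 573 and 667 CPM in KI, 707, 788 and 725 CPM in wt) and Ddit3 (22.1, 25 and 27.3 CPM in KI, 16.9, 17.6 and 18.5 CPM in wt) did not overlap, nor did Hsp90b1, and none of them was called. These are 3 of 10 members, where 20.2% of all tested genes did not overlap at that time.

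**Figure D4:**
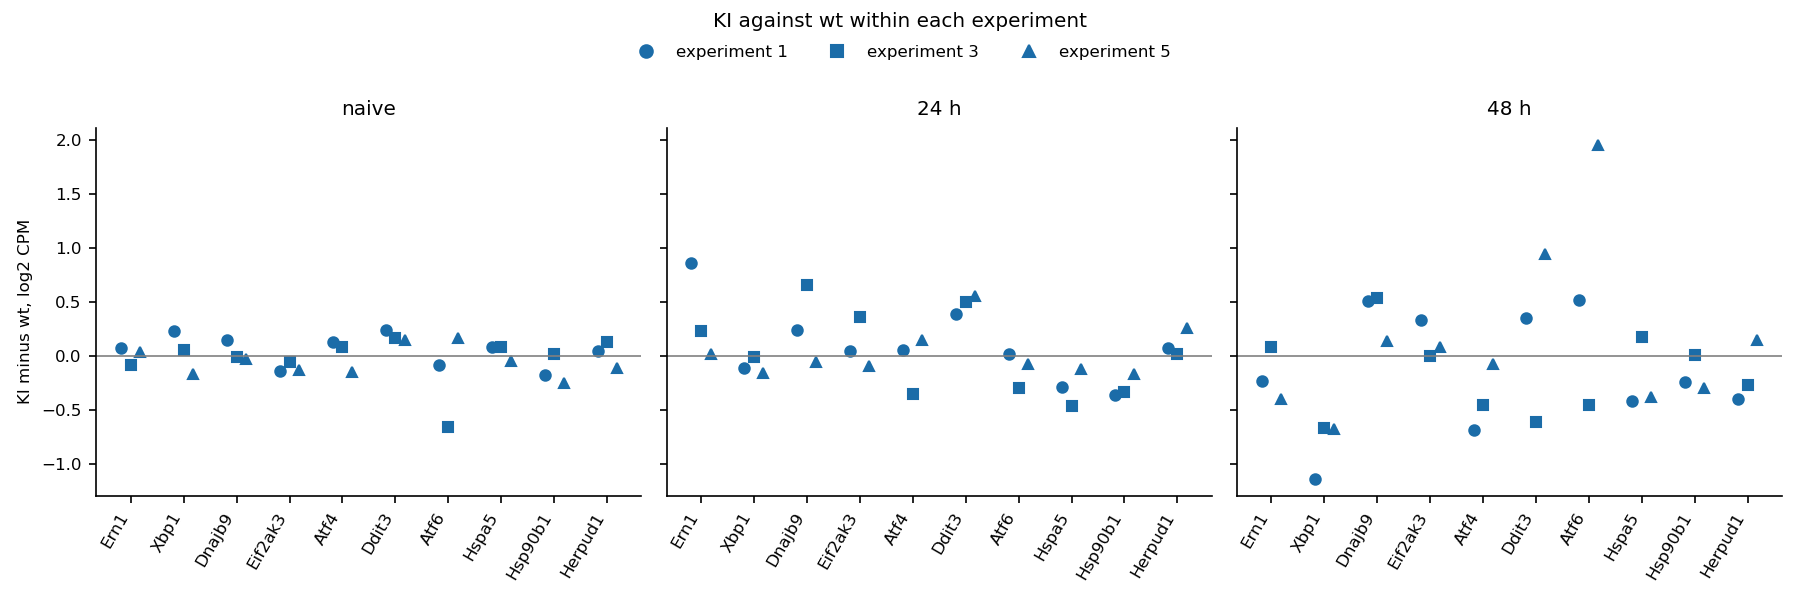
KI minus wt log2 CPM of each gene within experiments 1, 3 and 5 (vertical axis, 1 symbol per experiment), in naive cells, at 24 h and at 48 h. Xbp1 at 48 h lies below 0 in all 3 experiments (-1.14, -0.67 and -0.68), and Atf6 at 48 h spreads from -0.45 to 1.96.

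In libraries labelled KO, 5 genes were called between naive and 48 h, 4 higher and 1 lower, against 44% of all genes, 23.7% higher and 20.4% lower. The pair of 48 h libraries differed most in the PERK branch and Atf6. Ddit3 had 164 CPM in experiment 1 and 19 CPM in experiment 5, against 31 and 28.8 CPM naive. Eif2ak3 had 141 and 38.1 CPM, Atf4 645 and 318 CPM, Atf6 62.4 and 8.57 CPM, Herpud1 113 and 61.3 CPM, and Xbp1 219 and 121 CPM. Every PERK-branch gene was higher in the experiment 1 library, as were Ern1 (12.3 against 6.42 CPM), Xbp1, Dnajb9, Atf6 and Herpud1. Hspa5 and Hsp90b1 were lower in that library. That library also had the Cd4 level given above, and the part of other cells in these values was not tested.

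Ddit3 shows how far the group rests on that library. It was called higher at 48 h by 1.62 on the log2 scale (SE 0.542, edgeR adjusted p 0.0217), although the groups overlapped. It was 0.91 with the mouse as a block (adjusted p 0.164) and -0.65 without the experiment 1 library at 48 h. Within experiments it was 2.40 and -0.59, and limma did not call it (0.84, adjusted p 0.222). Atf4 was called higher with 0.78 (SE 0.244, adjusted p 0.0147) and was at 0.19 without the experiment 1 library at 48 h.

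Xbp1, Hsp90b1 and Dnajb9 kept their direction without the library. That fit leaves 1 library of this group at 48 h, so only its effect sizes are given. Xbp1 rose from 73 and 46.3 CPM naive (edgeR log2 fold change 1.51, SE 0.297, adjusted p 0.000476, and 1.02 without the library). Hsp90b1 went from 473 and 406 CPM to 668 and 891 CPM (edgeR log2 fold change 0.83, SE 0.161, adjusted p 0.000444, and 1.02 without the library). It stood at 0.50 without KO replicate 5, which also leaves 1 library at 48 h. Dnajb9 went from 108 and 92.5 CPM to 9.21 and 7.91 CPM (edgeR log2 fold change -3.55, SE 0.29, adjusted p 3.81e-08, and -3.66 without the library). Ern1 went from 16.8 and 11.1 CPM to 12.3 and 6.42 CPM and was not called (-0.58, SE 0.299, edgeR adjusted p 0.123, and -1.12 without the library). Hspa5 stood at 794 and 654 CPM in naive libraries, and its 48 h libraries of 487 and 838 CPM lay on both sides of them. In a fit of these 2 groups alone 1 gene, Dnajb9, was called, against 7.18% of all genes (Xbp1 1.49, adjusted p 0.0897, and Hsp90b1 0.82, adjusted p 0.13). B cell markers summed to 736 to 2820 CPM naive and 500 to 739 CPM at 48 h in this group, and salivary acinar markers to 32 to 76.1 CPM and 2.91 to 3.94 CPM, and their part was not tested.

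Compared with wt, edgeR called none of the 10 genes in libraries labelled KO, against 0.0236% of all genes in naive cells and 0.0283% at 48 h, and DESeq2 and limma called 0 at both times. In naive cells none had an unadjusted p under 0.05. At 48 h Ddit3 (1.53, SE 0.477, edgeR adjusted p 0.67) and Eif2ak3 (0.90, SE 0.321, edgeR adjusted p 0.67) did, beside 1462 of the 21183 genes tested. Without the experiment 1 library Ddit3 and Eif2ak3 stood at -0.74 and -0.33, and without KO replicate 5 at 2.36 and 1.55. Each of these fits leaves 1 library of the group at 48 h. The interaction at 48 h called 0 of the 10, against 0% of all genes, with none at an unadjusted p under 0.05 and 0 by DESeq2 or limma, and called 2 without KO replicate 5, against 6.03% of all genes in that fit. Xbp1 at 48 h was 0.33 from wt (SE 0.263, edgeR adjusted p 0.799).

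Set side by side in wt cells at 48 h against naive, only the IRE1 branch held genes called in opposite directions. In wt cells the IRE1 branch had 1 gene called higher and 2 lower (median log2 fold change -0.87), the PERK branch 0 of 3 called (median 0.20) and the ATF6 branch 1 of 4 called higher (median 0.32), while the median over all tested genes was -0.04. From 24 h to 48 h in wt cells the medians were 0.48, 0.85 and -0.04, and the PERK branch had all 3 genes higher, 1 of them called. In KI cells over that interval the medians were -0.01, 0.56 and 0.09. All 3 sensors had lower FPKM than the target genes of their own branch in naive wt cells, and they did not move together: Ern1 fell, while Eif2ak3 and Atf6 were not called. No test between branches was made, since genes of a branch are not replicates.

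Wider lists of the same pathways showed whether other known targets moved. Of 23 ER chaperones and folding enzymes beyond Hspa5 and Hsp90b1, 17 were called higher and 2 lower at 24 h in wt cells, with a median log2 fold change of 0.83 against -0.05 for all genes. At 48 h 18 rose and 2 fell. Called genes were 82.6% of the list at 24 h and 87% at 48 h, beside 48.4% and 56.4% of all genes. In wt cells Canx, the lectin chaperone calnexin, went from 256 ± 12.5 to 607 ± 54.8 CPM at 24 h (SD, n = 3; log2 fold change 1.24, edgeR adjusted p 4.89e-08). Pdia6, a disulfide isomerase, went from 72 ± 5.15 to 222 ± 18.4 CPM (1.62, edgeR adjusted p 1.28e-07). Sdf2l1 went from 6.82 ± 1.23 to 50.4 ± 3.8 CPM (2.89, edgeR adjusted p 5.87e-06). Ero1l, the oxidase that recharges disulfide isomerases, rose further between 24 h and 48 h (1.03, edgeR adjusted p 0.00471), while Calr, the chaperone calreticulin, fell (-0.65, edgeR adjusted p 0.0104). In KI cells 15 rose and 1 fell at 48 h, beside 48.7% of all genes called. In libraries labelled KO 13 rose and 2 fell, beside 44% of all genes.

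Of 24 genes of ER import and early secretion known as XBP1 targets, 17 rose and 0 fell in wt cells at 48 h (median 0.68), which is 70.8% of the list. Spcs3, a signal peptidase subunit, went from 82.2 ± 4.89 to 239 ± 36.3 CPM (log2 fold change 1.54, edgeR adjusted p 8.1e-09), and Ssr2, a translocon-associated subunit, from 80.2 ± 7.39 to 196 ± 26.8 CPM (1.29, edgeR adjusted p 5.88e-08). In KI cells 14 rose and 1 fell (median 0.46), beside 48.7% of all genes called. In the direct comparison at 48 h the median was -0.22, 0 were called by edgeR, and 6 of the 24 had an unadjusted p under 0.05. Of all 21183 genes tested, 3801 had one. Of 18 genes of ER-associated degradation, 7 rose and 3 fell in wt cells at 48 h (median 0.16). That is 55.6% of the list, near the 56.4% of all genes called. Vcp, the ATPase that extracts proteins from the membrane, rose (1.23, edgeR adjusted p 1.45e-05), and the lectin gene Os9 fell (-0.77, edgeR adjusted p 6.85e-07).

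Of 33 targets of ATF4 and CHOP, 32 were tested and 26 rose and 2 fell in wt cells at 48 h, 87.5% of those tested and the highest median of the lists at 1.95. Psat1, of serine synthesis, went from 30.9 ± 1.11 to 422 ± 84.3 CPM (log2 fold change 3.77, edgeR adjusted p 1e-10). Phgdh, the first enzyme of that pathway, rose by 2.43 (edgeR adjusted p 1.11e-09), and Mthfd2, of mitochondrial folate metabolism, by 3.42 (edgeR adjusted p 4.26e-09). Ppp1r15a, which encodes the stress-induced phosphatase subunit GADD34 acting on eIF2alpha, fell from 487 ± 81.5 to 34.9 ± 3.94 CPM (-3.80, edgeR adjusted p 3.14e-09). Between 24 h and 48 h 15 of the 32 rose in wt cells (median 0.96), among them the BH3-only gene Bbc3 (1.6, edgeR adjusted p 0.000654) and Sesn2 (1.44, edgeR adjusted p 0.00224). In KI cells 4 rose over that interval (median 0.70). Of all tested genes 4.06% were called higher over it in wt and 1.72% in KI. In the list, 26 genes in wt and 22 in KI had an unadjusted p under 0.05 by edgeR. Of all 21183 genes tested, 4525 in wt and 3286 in KI had one. The difference between the list counts of wt and KI was not tested. Several of these genes also serve amino acid synthesis and tRNA charging, which activated T cells are known to raise.

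**Figure D5:**
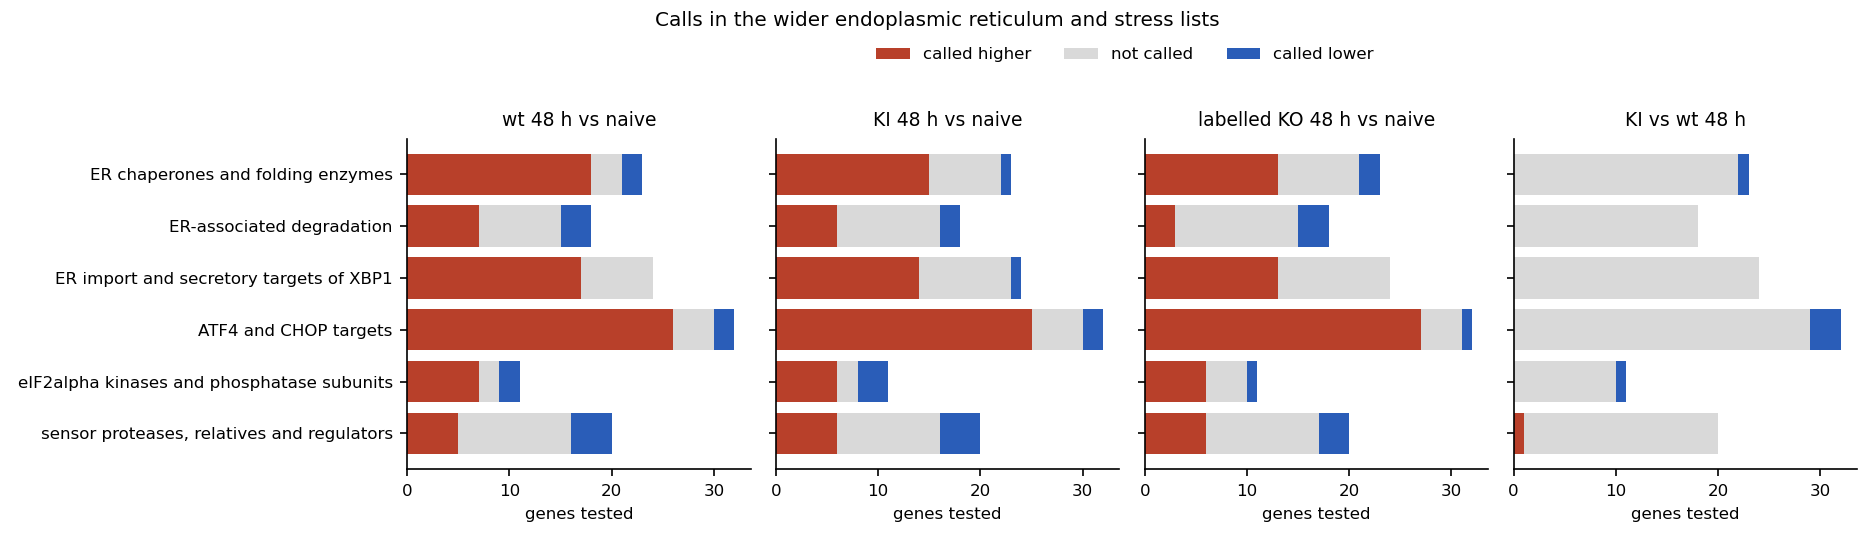
Number of tested genes called higher, not called and called lower (edgeR, horizontal axis) in each wider list, for activation to 48 h in wt, KI and libraries labelled KO, and for KI against wt at 48 h. Of the ATF4 and CHOP targets 26 are called higher in wt, 25 in KI and 27 in libraries labelled KO, and 3 are called lower in KI than in wt.

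At 48 h KI differed from wt in 6 of the 125 distinct genes tested in these lists. That is 4.8%, near the 4.2% of all genes called. Sil1, a nucleotide exchange factor of BiP, had 18 ± 1.2 CPM in KI and 30.1 ± 6.01 CPM in wt (SD, n = 3; log2 difference -0.74, edgeR adjusted p 0.0198). Tnfrsf10b, a death receptor and CHOP target, had 25.9 ± 2.1 and 43.7 ± 8.61 CPM (-0.75, edgeR adjusted p 0.0267). The tRNA synthetase genes Nars (-0.51, edgeR adjusted p 0.0325) and Gars (-0.56, edgeR adjusted p 0.0497) were lower, as was Eif2ak4, the amino acid sensor kinase GCN2 (-0.57, edgeR adjusted p 0.0325). Map3k5, the kinase ASK1 downstream of IRE1, was higher, at 80.4 ± 6.73 against 54.4 ± 2.59 CPM (0.56, edgeR adjusted p 0.0205). Of 11 eIF2alpha kinases, phosphatase subunits and eIF2 factors, 7 rose and 2 fell in wt cells at 48 h, 81.8% of the list, with Eif2s1, eIF2alpha itself, higher by 1.43 (edgeR adjusted p 1.02e-06). Of 22 proteases, relatives and regulators of the sensors, 20 were tested, and 5 rose and 4 fell at 48 h in wt cells, 45% of those tested beside 56.4% of all genes, with Bak1 higher by 1.05 on the log2 scale (edgeR adjusted p 2.43e-06) and Creb3 lower (-0.80, edgeR adjusted p 3.34e-06).

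Genes with the most similar pattern over the 22 libraries were sought among 14726 genes by Pearson's r of log2 CPM. For Hspa5 they were Polr3d (0.888), Eif4a1 (0.882) and Cops8 (0.865). For Xbp1 they were Zcchc9 (0.929), Plod3 (0.925) and Ppp2r2d (0.92), and for Ddit3 they were Clk3 (0.946), Snx18 (0.932) and Stat5b (0.925). These libraries share mice, experiments and depth, and the likeness is a description. Ddit3 stood at 164 CPM in the 48 h library labelled KO of experiment 1 and at 16.9 to 44.4 CPM in the others. Xbp1 stood at 219 CPM there and at up to 155 CPM in the others. Likeness was not computed without that library.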

How the data were processed

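Libraries were made from mRNA with a TruSeq stranded kit and sequenced as 75-base read pairs on an Illumina HiSeq, per the labels' protocols. The submitters' processing notes name bcl2fastq 2.20.0, TopHat2 2.1.0, Bowtie2 2.2.5, SAMtools 0.1.19, featureCounts and DESeq2 1.6.3, with GRCm38 and mm10. The annotation release and the strand setting of counting are not given in the sources used here, so overlapping genes on opposite strands may not be told apart. Raw counts, whole numbers, were deposited for 46603 genes. The deposited log2 normalized values were log2 of the count over 1 factor per library plus 1 (largest relative deviation 3.6e-14). The authors' deposited FPKM equal such normalized counts divided by 1 length per gene (1.6e-13). A deposited table of log2 variance-stabilised values served as an alternative. Columns of other samples numbered 0. Positions are those of the authors' tables and equal those of GENCODE M21 (GRCm38) for all 10 genes. Windows before gene starts are from RefSeq.

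Genes were kept by filterByExpr of edgeR 4.0.16 in R 4.3.3 (minimum count 10, total 15) and scaled with TMM. A quasi-likelihood model of 8 group means was fitted to 22 libraries with 14 residual degrees of freedom, and p-values were adjusted by Benjamini-Hochberg over 21183 genes. Calls required an adjusted p under 0.05. CPM are counts over the TMM-adjusted total, except those of cell type markers, which are over the plain library total. The fit was tested on simulated data. Groups came from the labels. Alternatives were library size alone, upper-quartile scaling, no filter, the compared groups only, a block, 1 mouse left out, DESeq2 1.42.0, and limma 3.58.1 on the variance-stabilised values. Leaving out the 48 h library labelled KO of experiment 1 was added after seeing the data.

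Replicates are mice, and replicate numbers are the labels' experiments, so they pair the libraries. Deviations from group means correlated with a median r of 0.452 over the 9 pairs that set a KI beside a wt library within 1 experiment and time, 8 of them over 0.1, and of -0.249 in pairs of different experiments. Within a mouse the median was 0.29. No replicates were duplicates (the smallest chi-square per degree of freedom was 14.4). Members and lists were chosen with earlier results of these data known. All 10 genes are named. Of each wider list, named genes come from the up to 4 called with the smallest p in a comparison, or the up to 2 with the smallest p where none was called. Likeness was searched for 3 genes.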

Additional observations from a re-analysis of the deposited data

How the results depend on the processing

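Of 22 called log2 fold changes of the 10 genes, 1 changed sign under an alternative: Ddit3 between naive and 48 h in libraries labelled KO, at -0.65 without the 48 h library of experiment 1 and from -0.59 to 2.40 on leaving out KO replicate 1 or 5. With the compared groups only, 8 genes were called at 24 h in wt, against 60.9% of all genes in that fit. From 24 h to 48 h 1 was called in wt, against 2.04%. In KI 9 were called at 24 h (55.7% of all genes) and 2 from 24 h to 48 h (7.11%). In libraries labelled KO 1 was called (7.18%). Leaving out the 48 h library labelled KO of experiment 1 leaves 1 library in its group, so effect sizes are given. In wt, Eif2ak3 was then at -0.54 at 24 h and 0.50 from 24 h to 48 h on the log2 scale. Ddit3 was at -0.64 and 0.85. In KI, Atf4 was at 0.59 from 24 h to 48 h. DESeq2 called 1 gene from 24 h to 48 h in KI. For KI against wt at 48 h 1 gene, Xbp1, was called with no filter, with DESeq2 and with limma. The shares of all genes called by DESeq2, by limma and with no filter are not given here. Without the 48 h library labelled KO of experiment 1, Xbp1 stood at -0.82 in that comparison. Leaving out 1 mouse gave 3 to 7 calls at 24 h and 0 to 5 from 24 h to 48 h in wt, 0 to 1 from 24 h to 48 h in KI, 2 to 3 at 48 h in KI, 3 to 5 in libraries labelled KO, 0 to 1 for KI against wt at 48 h, 0 to 6 for libraries labelled KO against wt at 48 h and 0 to 2 for their interaction. With 1 library in a group, its spread is assumed to be that of the other groups. The share of all genes called also moved with the setting, so these counts are not particular to the 10 genes. The experiment as a replicate block changed no call, and the mouse as a block changed the 3 given above. With CPM in place of FPKM the order of levels between genes changed. The size of difference that could be called varied between genes with their spread, with an SE of 0.563 for Atf6 and 0.132 for Hsp90b1 at 24 h in wt.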
